A study of Homo sapiens with 4 samples.

Results

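The genes described here code for secreted and membrane-bound proteases that cut the extracellular matrix, the enzymes that activate plasminogen, and their tissue inhibitors. They were 10 of the 58825 genes in the table: the matrix metalloproteases MMP1, MMP7, MMP9, MMP10, MMP13 and MMP14, the plasminogen activators PLAU and PLAT, and the inhibitors TIMP1 and TIMP2. They were picked by symbol and chosen by a reader who already knew their values in this comparison, so their differences between the groups are given as a description and no test is drawn from them. By the labels the RNA was from HaCaT, a human skin keratinocyte line that became immortal spontaneously. Control cells (shNC) received a lentivirus with a control hairpin, and knockdown cells (shlnc-DC) one whose hairpin targets lnc-DC, a long noncoding RNA. Both groups were grown in MEPICF500 medium with 1.2 mM calcium, which drives keratinocytes to differentiate, and each had 2 libraries, called biological replicates. The labels name 1 hairpin treatment per group and no clone, and they do not say whether the replicates came from separate infections, so any p-value measures only the spread between these libraries.

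Matrix metalloproteases are zinc enzymes made as inactive precursors. Collagenases (MMP1, MMP13) cut fibrillar collagen, matrilysin (MMP7) and stromelysin 2 (MMP10) cut a wide range of matrix and cell-surface proteins, gelatinase B (MMP9) cuts denatured and basement membrane collagen, and MMP14 is anchored in the plasma membrane. Urokinase (PLAU) and tissue plasminogen activator (PLAT) turn plasminogen into plasmin, which cuts fibrin and can activate several of these precursors. TIMPs bind the active site of the metalloproteases, and TIMP2 together with MMP14 also takes part in the activation of MMP2. In the epidermis collagenases and urokinase are best known from keratinocytes that migrate over a wound. RNA levels, as measured here, say nothing about how much of each enzyme is active.

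The values are FPKM, fragments scaled by transcript length and library total, so they can be compared between genes as levels per length. Between 22351 and 22780 genes per library were above 0, and the library totals of reads are not part of the table. The targeted transcript, listed as WFDC21P, had 2.15 and 2.76 FPKM in control and 0.09 and 0.29 FPKM in knockdown cells. Mitochondrially encoded genes made up 41.2% and 41.9% of summed FPKM in control and 28.1% and 26.8% in knockdown libraries. All 12 housekeeping genes looked at were above 0 in every library. Of 9 keratinocyte markers 6 reached 1 FPKM in a library, with KRT5 between 123.71 and 304.42 FPKM but KRT14 at 0.08 to 0.35 FPKM. The others below 1 FPKM were KRT16, at 0.07 to 0.35 FPKM, and KRT17, at 0.66 to 0.85 FPKM. The summed level of the 9 was 651.38 and 719.72 FPKM in control against 364.22 and 405.76 FPKM in knockdown libraries. All 5 simple epithelium markers were present, with sums of 1081.21 and 1159.48 FPKM against 918.1 and 901.71 FPKM. Both sums were lower in the knockdown, through a few abundant genes: mainly KRT5 and SFN among the keratinocyte markers, and KRT19 (334.49 and 371.02 FPKM against 202.24 and 198.27 FPKM) in the other list. KRT6A, CDH1, KRT14, KRT17, KRT8 and KRT18 were also lower in both knockdown libraries than in either control library. The remaining markers did not share this. EPCAM had 93.32 and 108.55 FPKM in control and 101.93 and 119.07 FPKM in knockdown cells. PERP had 28.02 and 33.69 FPKM against 32.57 and 36.04 FPKM. The groups overlapped for both, as they did for KRT7, TP63 and KRT16. The part of these markers in the differences described here was not tested. None of 8 fibroblast markers reached 1 FPKM and their sum was 0.49 to 0.69 FPKM. The leukocyte marker PTPRC was listed at 0 in all 4 libraries, while the macrophage list summed to 13.38 to 13.94 FPKM, mostly CD68. Of the 4 endothelial markers, CDH5 alone reached 1 FPKM (3.52 to 6.42 FPKM). In bulk RNA fewer cells of a kind and less RNA per cell cannot be told apart.

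In control cells the transcripts ranged over several orders of magnitude. PLAU was the highest, at 105.69 and 105.83 FPKM, followed by MMP14 (76.14 and 77.42 FPKM), TIMP1 (37.73 and 37.66 FPKM), PLAT (36.21 and 34.56 FPKM) and TIMP2 (23.83 and 25.48 FPKM). MMP7 stood lower, at 9.16 and 11.72 FPKM, and MMP13 at 1.0 and 1.07 FPKM. MMP1 (0.31 and 0.26 FPKM) and MMP10 (0.17 and 0.06 FPKM) were near the bottom of the scale, and MMP9 was listed at 0. No neighbours in this order overlapped between the control libraries. In knockdown cells PLAT (16.94 and 16.10 FPKM) overlapped with TIMP2 (21.49 and 13.61 FPKM), and MMP1 (0.87 and 1.33 FPKM) stood above MMP13 (0.52 and 0.33 FPKM), the reverse of their order in control cells.

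**Figure D1:**
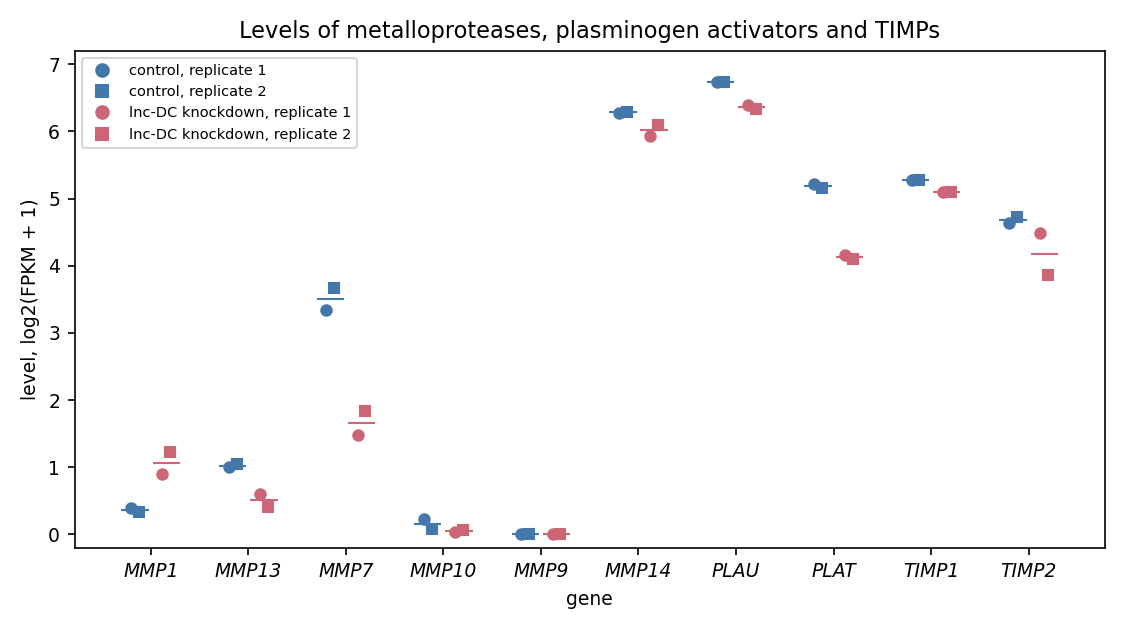
Level of each gene in each library, as log2(FPKM + 1) on the vertical axis. Circles are replicate 1, squares replicate 2, and the short line is the mean of the 2 log2 values of a group. MMP7 and PLAT show the widest gaps downward in the knockdown, MMP1 is the gene with both knockdown libraries above both control libraries, and MMP9 lies at 0 throughout.

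Among the secreted metalloproteases, MMP7 differed most. Matrilysin is a short metalloprotease that lacks the hemopexin domain of the others and is a product of glandular and mucosal epithelia. Its level was 9.16 and 11.72 FPKM in control cells and 1.80 and 2.59 FPKM in knockdown cells. The groups did not overlap, and even the closest pair of libraries, control replicate 1 and knockdown replicate 2, differed 3.54-fold. The control mean was 4.76-fold above the knockdown mean (10.4 ± 1.81 against 2.20 ± 0.559 FPKM, SD, n = 2 per group). On the log2(FPKM + 1) scale the difference was -1.84 (SE 0.191), and for MMP7 the log2 ratio in the authors' deposited table is -2.25. Among the 12411 genes that reached the filter described below, MMP7 ranked at percentile 66.8 and 74.6 in control but no higher than about 29 in knockdown cells.

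MMP7 (ENSG00000137673) lies on the minus strand of chromosome 11 at 102520508 to 102530753 (GRCh38, GENCODE 29). It is the first in genome order of 9 metalloprotease genes that share 435 kb and the same strand, of which MMP13 at 102942995 to 102955734 is the last. MMP7, MMP10, MMP12 and MMP13 were lower in both knockdown libraries than in either control library. MMP1, which lies between MMP7 and MMP13, was the only gene of the cluster higher in both, at 0.87 and 1.33 FPKM against 0.31 and 0.26 FPKM. Apart from MMP7 these levels are low and carry an unknown counting error. MMP10 was at 0.17 and 0.06 FPKM in control and 0.03 and 0.05 FPKM in knockdown cells, and MMP12, the macrophage elastase, at 0.39 and 0.28 FPKM against 0.20 and 0.20 FPKM. MMP3, MMP8 and MMP27 were listed at 0 in all 4 libraries, and MMP20, the enamel protease, at 0.01 FPKM in 1 control library and at 0 in the others.

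The 2 members of this cluster with a promoter entry in RefSeq are MMP7 and MMP10. They are shown because each has a match to TGANTCA at the same distance from its RefSeq start, although their levels lie far apart. MMP14, the most abundant metalloprotease here, is shown beside them. The sequences come from the RefSeq promoter table (GRCh38.p14), run 5′ to 3′ on the gene's strand from 250 bases before the RefSeq start, and end before the first base of the gene as RefSeq or GENCODE 29 annotates it. They cover chr11:102530754-102530997 on the minus strand for MMP7, chr11:102780629-102780878 on the minus strand for MMP10 and chr14:22836335-22836556 on the plus strand for MMP14. Capitals mark every match, on either strand, to 4 motifs. These are TGANTCA (a loose form of the AP-1 binding site), AGGAAG (bound by ETS factors), CTTTGA (bound by TCF and LEF factors) and TATAAA (the TATA box). AP-1 is the dimer of FOS and JUN proteins.
MMP7: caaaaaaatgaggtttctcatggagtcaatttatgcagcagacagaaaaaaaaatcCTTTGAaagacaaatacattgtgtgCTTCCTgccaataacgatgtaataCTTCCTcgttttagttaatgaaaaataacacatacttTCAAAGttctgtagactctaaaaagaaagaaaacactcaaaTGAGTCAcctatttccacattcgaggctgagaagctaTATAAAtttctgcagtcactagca
MMP10: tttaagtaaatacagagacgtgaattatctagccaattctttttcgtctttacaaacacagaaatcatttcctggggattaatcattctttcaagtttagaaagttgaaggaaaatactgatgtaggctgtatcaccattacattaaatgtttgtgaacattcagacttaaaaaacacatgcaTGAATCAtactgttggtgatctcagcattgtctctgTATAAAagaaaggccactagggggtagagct
MMP14: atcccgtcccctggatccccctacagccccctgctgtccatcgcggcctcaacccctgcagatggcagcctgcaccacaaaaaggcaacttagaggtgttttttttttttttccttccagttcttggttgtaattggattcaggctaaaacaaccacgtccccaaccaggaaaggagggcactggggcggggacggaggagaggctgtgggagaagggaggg

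Counted back from the RefSeq start, whose preceding base is -1, the AP-1 motif stood at -67 to -61 in both MMP7 and MMP10. It read TGAGTCA in MMP7 and TGAATCA in MMP10. GENCODE 29 starts MMP7 6 bases upstream of RefSeq and MMP10 at the same base. A TATA box stood at -30 in MMP7 and -31 in MMP10. MMP7 also held 2 matches to the ETS motif, at -169 to -164 and -145 to -140, and 2 to the TCF motif, at -194 to -189 and -108 to -103, and MMP10 held neither. No 2 matches overlapped. The MMP14 window held none of the 4 motifs. Of the 10 genes 5 had an entry; those of PLAU and TIMP1 are not described, because much or all of their RefSeq window lies inside the gene as GENCODE 29 annotates it. Of all 35116 promoter windows of 250 bases in the table, 6.57% held the AP-1 motif, 28.7% the ETS motif, 11.2% the TCF motif and 10.7% the TATA box. Such matches describe the letters and are not evidence that a factor binds there. MMP1, MMP9, MMP13, PLAT and TIMP2 had no entry.

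The 2 collagenases differed in opposite directions. MMP1, the interstitial collagenase (chromosome 11, 102789920 to 102798160, minus strand), was listed at 0.31 and 0.26 FPKM in control cells and 0.87 and 1.33 FPKM in knockdown cells. Both knockdown libraries were above both control libraries, with a knockdown mean 3.86 times the control mean. MMP13, collagenase 3, had 1.0 and 1.07 FPKM in control and 0.52 and 0.33 FPKM in knockdown cells, so that its groups did not overlap either and the control mean was 2.44-fold above the knockdown mean. On the log2(FPKM + 1) scale, which compresses values this low, the differences were 0.70 (SE 0.193) for MMP1 and -0.52 (SE 0.172) for MMP13. Both genes entered the fit only through the group in which they were higher, MMP1 through the knockdown mean of 1.1 FPKM and MMP13 through the control mean of 1.03 FPKM. MMP1 shares 150 exon bases with WTAPP1, a pseudogene on the opposite strand, which was listed at 0 to 0.03 FPKM.

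MMP14, the membrane type 1 enzyme that cuts collagen at the cell surface (chromosome 14, 22836557 to 22849027, plus strand), supplied most of the metalloprotease RNA. Its level was 76.14 and 77.42 FPKM in control cells and 60.26 and 67.65 FPKM in knockdown cells. The groups did not overlap, but the 2 knockdown libraries lay nearly as far from each other as the upper one lay from the controls. The control mean was 1.20-fold above the knockdown mean, a log2 difference of -0.26 (SE 0.114). Summed over the 6 metalloproteases the level was 86.8 and 90.5 FPKM in control and 63.5 and 72.0 FPKM in knockdown cells. MMP14 made up 87.7% and 85.5% of that sum in control and 94.9% and 94.0% in knockdown cells, since the other 5 together went from 10.6 and 13.1 FPKM to 3.22 and 4.30 FPKM. MMP9 (chromosome 20, 46008908 to 46016561), known from migrating keratinocytes and neutrophils, was listed at 0 in all 4 libraries. A listed 0 may be a failed estimate, so it does not show that the RNA is missing. MMP10 (chromosome 11, 102770503 to 102780628) also stayed below the filter of 1 FPKM and was not tested.

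The 2 plasminogen activators were both abundant and differed to unlike extents. PLAT, on chromosome 8, had 36.21 and 34.56 FPKM in control cells and 16.94 and 16.10 FPKM in knockdown cells. Replicates agreed within a few percent of their mean and the groups lay far apart, with the control mean 2.14-fold above the knockdown mean (35.4 ± 1.17 against 16.5 ± 0.594 FPKM, SD, n = 2 per group) and a log2 difference of -1.05 (SE 0.103). PLAU (chromosome 10, 73909177 to 73917497, plus strand) had 105.69 and 105.83 FPKM in control cells and 82.76 and 79.51 FPKM in knockdown cells. Its groups did not overlap either, and the control mean was 1.3-fold above the knockdown mean (log2 difference -0.38, SE 0.104). PLAU shares 916 exon bases with C10orf55 on the opposite strand, which was listed at 1.03 to 1.33 FPKM; the strand setting of the counting is not given in the sources used here.

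The rest of the plasminogen system was described with a list of 16 other genes, of which 10 reached the filter. None rose and none fell at an adjusted p under 0.05 (limma over all tested genes), 4 had an unadjusted p under 0.05, and the median log2 difference was 0.06 against 0.09 over all tested genes. Of all tested genes 22.8% had an unadjusted p under 0.05, the share to set beside this count and those of the other lists. Plasminogen itself (PLG) was listed at 0 in all 4 libraries, so the substrate of both activators was not seen in the cells' own RNA. PLAUR, the urokinase receptor, had 3.55 and 3.37 FPKM in control and 3.74 and 3.50 FPKM in knockdown cells, and its groups overlapped. Its log2 difference of 0.05 became -0.029 under median centring. The intracellular inhibitor SERPINB2 had 21.22 and 21.45 FPKM against 16.81 and 20.34 FPKM, a difference of -0.20 (SE 0.130, adjusted p = 0.426). S100A10, which with annexin A2 forms a plasminogen receptor, had 441.88 and 510.90 FPKM in control and 334.12 and 326.00 FPKM in knockdown cells (log2 difference -0.52, SE 0.138, limma adjusted p = 0.134). PLGRKT, a plasminogen receptor with a C-terminal lysine, had 4.21 ± 0.445 and 2.60 ± 0.191 FPKM (n = 2 per group, limma adjusted p = 0.126), and SERPINB8 had 1.38 ± 0.0141 and 2.31 ± 0.0778 FPKM (adjusted p = 0.145).

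Both TIMPs were well expressed, and their gaps between groups were the narrowest or the least even. TIMP1 (X chromosome, 47582313 to 47586789, plus strand), a broad inhibitor of metalloproteases, had 37.73 and 37.66 FPKM in control cells and 33.24 and 33.27 FPKM in knockdown cells. The replicates nearly coincided and the groups did not overlap, but the control mean was only 1.13-fold above the knockdown mean (log2 difference -0.18, SE 0.098 after the spread was pooled across genes). TIMP2 (chromosome 17, 78852977 to 78925387, minus strand) had 23.83 and 25.48 FPKM in control cells and 21.49 and 13.61 FPKM in knockdown cells. Here the 2 knockdown libraries differed more from each other than the upper one did from the controls, and the control mean was 1.40-fold above the knockdown mean. Leaving out the lower knockdown library made this 1.15-fold, and leaving out the upper one 1.81-fold. TIMP2 shares 198 exon bases on its own strand with CEP295NL, which did not exceed 0.07 FPKM.

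Of 10 other inhibitors of metalloproteases 3 reached the filter; none rose and none fell over all genes (limma), and 2 had an unadjusted p under 0.05. TIMP3, which binds to the matrix and also inhibits ADAM proteases, had 25.35 and 26.04 FPKM in control cells and 14.56 and 15.99 FPKM in knockdown cells, with no overlap (log2 difference -0.72, SE 0.107, adjusted p = 0.0782). TFPI2, a Kunitz inhibitor of plasmin and other serine proteases, had 29.65 and 33.33 FPKM against 19.35 and 21.07 FPKM (log2 difference -0.61, SE 0.118, limma adjusted p = 0.10). SPOCK1 had 1.55 ± 0.361 and 2.10 ± 0.0636 FPKM (n = 2 per group, limma adjusted p = 0.364).

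Ratios of 2 genes within a library do not depend on how that library was scaled, and 7 pairs, chosen after the values were seen, were computed for that reason. MMP7 stood at 0.243 and 0.311 of the level of TIMP1 in control cells and at 0.0542 and 0.0778 in knockdown cells. MMP1 went the other way, at 0.0082 and 0.0069 of the level of TIMP1 in control cells and 0.0262 and 0.0400 in knockdown cells. MMP14 relative to TIMP1 was 2.02 and 2.06 in control and 1.81 and 2.03 in knockdown cells, and relative to TIMP2 it was 3.20 and 3.04 against 2.80 and 4.97. Both of these ratios overlapped between the groups. MMP7 exceeded MMP1 29.5-fold and 45.1-fold in control cells and 2.07-fold and 1.95-fold in knockdown cells. The control values divide by MMP1 levels of 0.31 and 0.26 FPKM, whose counting error is unknown. PLAU exceeded PLAT 2.92-fold and 3.06-fold in control and 4.89-fold and 4.94-fold in knockdown cells, so urokinase took a larger part of the activator RNA in both knockdown libraries. PLAU relative to its receptor PLAUR was 29.8 and 31.4 in control and 22.1 and 22.7 in knockdown cells. These ratios are descriptions of genes chosen for their values and were not tested.

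**Figure D2:**
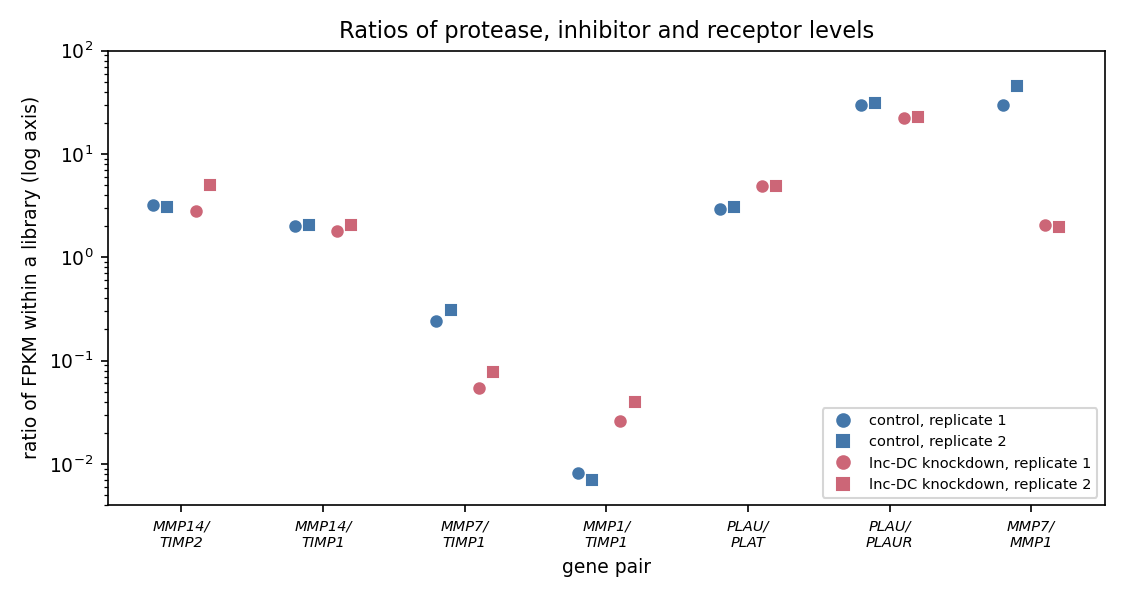
Ratio of the FPKM of 2 genes within each library, on a log axis; circles are replicate 1, squares replicate 2. The MMP7 to MMP1 ratio lies at 29.5 and 45.1 in control and at 2.07 and 1.95 in knockdown libraries. Its control values divide by low MMP1 levels of 0.31 and 0.26 FPKM. MMP14 to TIMP1 lies between 1.81 and 2.06 in all 4 libraries.

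Of the 10 genes 8 reached 1 FPKM in the mean of a group and entered the limma fit on log2(FPKM + 1). None of the 8 was called at an adjusted p under 0.05, where 0.250% of all 12411 tested genes were called, and 5 of the 8 had an unadjusted p under 0.05, as did 22.8% of all tested genes. Of the 8, 7 lay lower in both knockdown libraries than in either control library, a pattern shown by 19.2% of tested genes, and 1, MMP1, lay higher in both, as did 35.6%. The median log2 difference of the 8 was -0.44, against 0.09 over all tested genes. Because the genes were chosen with this contrast in view, and because 2 of them passed the filter only through their higher group, nothing is read from these counts. Of the 85 refits of the 8 genes under 11 other settings, none changed the sign of a difference. With FPKM rescaled to the sum without mitochondrially encoded genes the differences were -1.88 for MMP7, -1.10 for PLAT, -0.42 for PLAU, -0.31 for MMP14, -0.54 for TIMP2, -0.22 for TIMP1, -0.53 for MMP13 and 0.68 for MMP1.

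**Figure D3:**
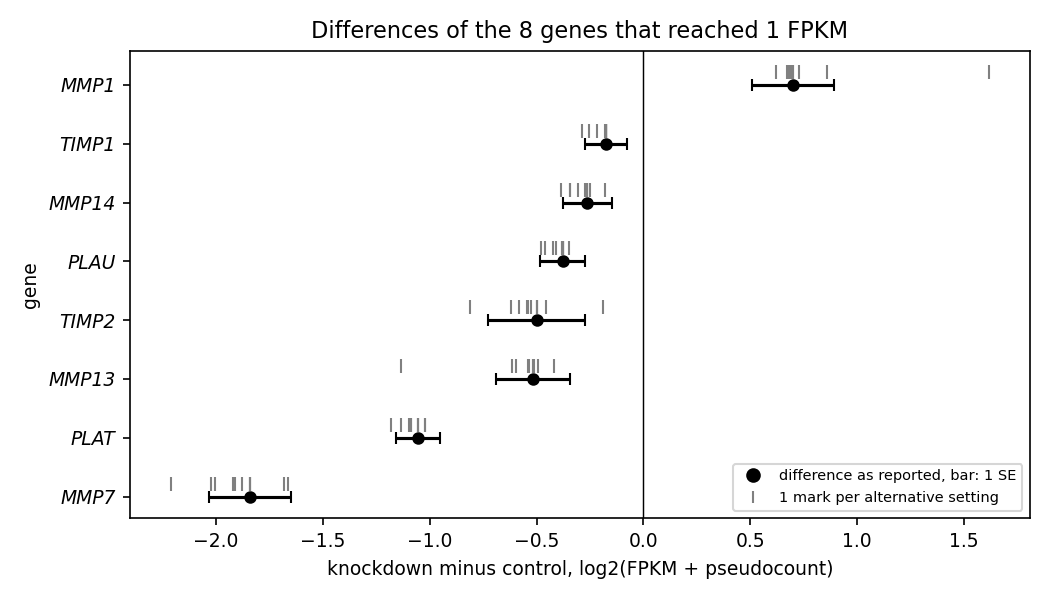
Knockdown minus control for the 8 genes that reached the filter, on the log2(FPKM + pseudocount) scale; the point is the difference as reported with a pseudocount of 1, the bar 1 SE, and each grey mark 1 alternative setting. MMP1 alone lies right of 0, and the outlying marks of MMP1 and MMP13 come from the pseudocount of 0.1.

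The other metalloproteases were mostly at or near 0. Of 17 other MMP genes 3 reached the filter, 4 were listed at 0 in all 4 libraries, and no untested one exceeded 0.39 FPKM in a library. None of the 3 rose or fell at an adjusted p under 0.05 (limma), and 1 had an unadjusted p under 0.05. This was MMP28, epilysin, a metalloprotease first described in epidermis and testis, with 5.98 and 5.95 FPKM in control cells and 2.28 and 1.44 FPKM in knockdown cells. Its groups did not overlap (log2 difference -1.30, SE 0.180, adjusted p = 0.0747). MMP15, another membrane-type enzyme, had 3.05 and 3.02 FPKM against 2.73 and 2.24 FPKM (log2 difference -0.21, SE 0.137, limma adjusted p = 0.409). MMP2, the gelatinase activated by MMP14 and TIMP2, had 0.80 and 0.83 FPKM against 1.10 and 1.15 FPKM (log2 difference 0.23, SE 0.151, limma adjusted p = 0.425), and it reached the filter only through the knockdown group, where it is higher.

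A list of 22 transcription factors known to bind the promoters of metalloproteases or PLAU had 17 tested genes; none rose or fell over all genes (limma), 5 had an unadjusted p under 0.05, and the median log2 difference was -0.03. ELF3, an ETS factor of epithelia, had 51.12 and 53.35 FPKM in control and 22.68 and 23.91 FPKM in knockdown cells (log2 difference -1.13, SE 0.103, limma adjusted p = 0.0533), and it passed in 3 of the other settings, with adjusted p down to 0.0376 under quantile normalization. Among AP-1 genes the values went both ways. FOS had 0.96 and 0.92 FPKM in control against 0.49 and 0.42 FPKM in knockdown cells, and FOSB 0.65 and 0.75 FPKM against 0.24 and 0.56 FPKM. Both were lower in the knockdown but stayed below the filter. The groups of FOSL2 and JUND overlapped. JUNB had 43.75 and 42.72 FPKM against 31.13 and 26.95 FPKM (limma adjusted p = 0.109), FOSL1 9.14 and 19.19 FPKM against 35.84 and 25.47 FPKM (adjusted p = 0.181), and JUN 3.72 and 3.59 FPKM against 4.45 and 4.84 FPKM (adjusted p = 0.247). The ETS factor ETV5 had 5.12 ± 0.516 and 9.04 ± 1.92 FPKM (n = 2 per group, limma adjusted p = 0.124), and NFKB1 13.5 ± 0.304 and 18.3 ± 0.693 FPKM (adjusted p = 0.122).

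Among 23 matrix and cell-surface substrates 13 were tested; none rose or fell over all genes (limma), 2 had an unadjusted p under 0.05, and the median log2 difference was 0.12. CDH1, which codes for E-cadherin, a known target of MMP7 and also 1 of the 9 keratinocyte markers, had 41.60 and 41.04 FPKM in control and 28.65 and 26.04 FPKM in knockdown cells (log2 difference -0.58, SE 0.107, adjusted p = 0.0971). The basement membrane collagen gene COL4A1 had 4.40 and 4.32 FPKM against 9.44 and 6.97 FPKM (log2 difference 0.77, SE 0.166, limma adjusted p = 0.111). FN1, which codes for fibronectin, had 13.2 ± 3.21 and 18.6 ± 2.01 FPKM (n = 2 per group, limma adjusted p = 0.237), and COL17A1, the hemidesmosomal collagen, 15.9 ± 1.16 and 19.2 ± 0.870 FPKM (adjusted p = 0.256). Of the collagenase substrates COL1A1, COL1A2 and COL3A1 none exceeded 0.61 FPKM in any library.

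**Figure D4:**
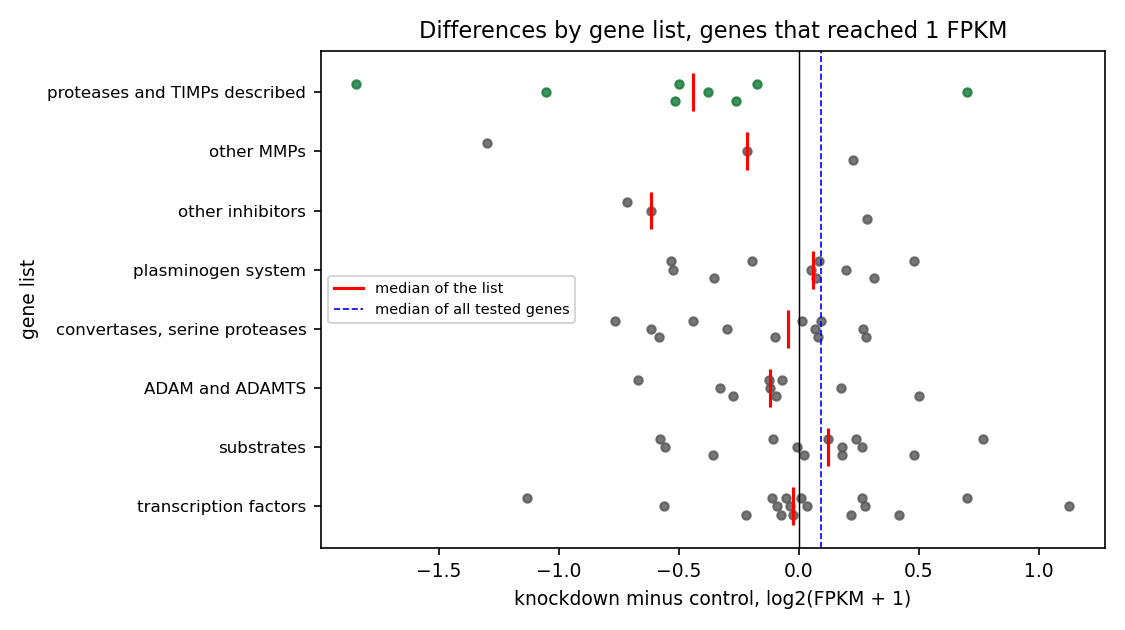
Knockdown minus control on the log2(FPKM + 1) scale, 1 point per gene that reached 1 FPKM in the mean of a group, by list. Red lines mark the median of each list (-0.44 for the genes described, 0.06 for the plasminogen system, 0.12 for substrates, -0.03 for transcription factors), and the dashed line the median of all tested genes (0.09); vertical offsets within a row only separate points.

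The genes whose pattern over the 4 libraries lay nearest to the 2 most different genes were found by the distance between mean-centred log2(FPKM + 1) values. Nearest to MMP7 were KRT13, a keratin of mucosal epithelia (distance 0.132; 969.89 and 1070.71 FPKM against 246.59 and 312.74 FPKM), the secretoglobin gene SCGB1A1 (0.231) and TNFSF10, the death ligand TRAIL (0.249). SCGB1A1 had 139.44 and 170.94 FPKM in control and 31.05 and 41.81 FPKM in knockdown cells (limma adjusted p = 0.0533). TNFSF10 fell, from 37.13 and 40.00 FPKM to 7.49 and 9.93 FPKM (log2 difference -2.04, SE 0.158, limma adjusted p = 0.0438), but with any 1 library left out its adjusted p was 0.130 to 0.245. Nearest to PLAT were the receptor gene ADGRF1 (distance 0.0245), INHBB, an inhibin and activin subunit (0.0294), and BTN3A3, a butyrophilin (0.0604). ADGRF1 had 12.37 and 11.75 FPKM against 5.54 and 5.25 FPKM, and INHBB 1.96 and 1.87 FPKM against 0.45 and 0.40 FPKM. INHBB is so low that log2(FPKM + 1) compresses its difference. With a pseudocount of 0.1 the difference was -1.94 for INHBB and -1.09 for PLAT. The distances rest on 4 libraries that all these genes share.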

How the data were processed

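RNA from 2 control and 2 knockdown libraries was sequenced; the labels give the group and number of each. Per the labels' protocols, polyadenylated RNA was taken from 5 µg of total RNA and sequenced as paired reads of 150 bases in libraries that mark the strand with dUTP. Per the submitters' processing notes, the tools were StringTie 1.3.4d, HISAT2 2.0.4, edgeR, DESeq2 and cutadapt 1.9, without their roles; build, annotation and strand setting of the counting are not stated there. The authors deposited FPKM per gene and library with 2 decimals, a fold (ratio) of the group means and its log2; FPKM is relative to a library's total, so abundant transcripts move all other values. There were 0 FPKM columns without a sample. Positions and overlaps come from GENCODE 29, which held 58552 of the 58825 gene IDs.

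Depth was sought in the steps of low FPKM of genes with 1 short transcript. At the best depth 24.9% to 26.4% of values lay within 0.1 of a whole read, where the median depth tried gave 18.5% to 19.3%, so reads were not recovered and depth is unknown.

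The 12411 genes whose mean reached 1 FPKM in either group entered a limma fit (version 3.58.1, R 4.3.3) on log2(FPKM + 1), with a mean-variance trend and no covariate. Tests were two-sided, and p-values were adjusted by Benjamini-Hochberg over all 12411, with 0.05 as threshold. In an exact permutation test 2 libraries against 2 could not pass, so calls depend on the spread that limma shares across genes. On simulated data (5 draws of 12411 genes, 200 changed) the fit recovered 82.1% of genes changed 2-fold and 98.5% changed 4-fold, and 7.31% of calls were false. The simulated spread was the one limma had already pooled across genes. Changed genes were drawn only from those with a mean log2(FPKM + 1) above 2, which leaves out MMP1 and MMP13. These shares therefore do not carry over to the real data. There MMP7, with a control mean 4.76-fold above the knockdown mean, was not called. Alternatives were another pseudocount, 2 filters, 3 scalings, the replicate number as a block, and leaving out each library. The members and the 7 gene lists were chosen with earlier results of these data known. Named were the members, WFDC21P, the markers, up to 4 genes with the smallest p per list (1 of them is not reported here), and the 3 nearest profiles of the 2 members that differed most; PLAUR, SERPINB2, FOSL1, JUN, the genes overlapping members, cluster neighbours and genes listed at 0 were named after their values were seen.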

Additional observations from a re-analysis of the deposited data

How the results depend on the processing

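In the 11 alternative settings the 8 tested proteases and inhibitors kept the direction of their differences. The number of them called was 0 as reported and 2 with a filter of 5 FPKM (MMP7, limma adjusted p = 0.0479, and PLAT, 0.0424). It was 1 with quantile normalization (PLAT, 0.0417) and 0 in the other settings that keep all 4 libraries. With all 4 libraries the limma adjusted p ranged from 0.0479 to 0.187 for MMP7 and from 0.0417 to 0.170 for PLAT. The filter of 5 FPKM called 58 of all 6971 genes it tested, and quantile normalization 57 of 12411. The 8 were chosen with their values known, so nothing is read from these calls. Over all genes, limma called 31 (14 higher, 17 lower), 58 with the filter of 5 FPKM (31 higher, 27 lower), 57 with quantile normalization (17 higher, 40 lower), 37 with median centring (13 higher, 24 lower), and 0 with no filter (3876 genes with an unadjusted p under 0.05) or when any 1 library was left out (1797 to 2251 genes). In those fits the lone library of a group is assumed to vary like the other group. MMP1 and MMP13 gave no value with the filter of 5 FPKM, and MMP1 none without knockdown replicate 2, where it missed the filter. The smaller pseudocount moved MMP7 to -2.21, MMP13 to -1.14 and MMP1 to 1.62. TNFSF10 had a limma adjusted p of 0.170 with no filter and 0.0980 with the replicate block. The difference of PLAUR became -0.029 under median centring, the 1 sign change in the 382 refits made of genes outside the 10. Same-numbered libraries share only a number: their deviations from the group means correlated at 0.124 across genes, and with the replicate block 0 genes were called (3791 with an unadjusted p under 0.05) and 0 of the 8. Without read totals, low values such as those of MMP1, MMP10 and MMP13 carry an unknown counting error.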

Other observations

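The ADAM and ADAMTS families, some of whose members release proteins from the cell surface, were described with a list of 20 genes. Of these, 9 reached 1 FPKM in the mean of a group. None rose or fell at an adjusted p under 0.05 (limma over all genes), 3 had an unadjusted p under 0.05, and 7 lay below 0. Over all tested genes 22.8% had such an unadjusted p and 38.6% lay below 0. The median log2 difference was -0.12 against 0.09 over all tested genes. ADAM10, the protease that sheds Notch receptors and E-cadherin, had 16.50 and 12.75 FPKM in control cells and 9.83 and 7.79 FPKM in knockdown cells (log2 difference -0.67, SE 0.181, limma adjusted p = 0.141). ADAM9 had 28.63 and 25.20 FPKM against 20.52 and 21.87 FPKM (limma adjusted p = 0.200), and ADAM15 9.01 and 7.48 FPKM against 6.73 and 6.52 FPKM (adjusted p = 0.294). ADAMTS9, a secreted proteoglycan protease, was listed at 0.53 and 0.36 FPKM against 1.14 and 0.95 FPKM (adjusted p = 0.191); it entered the fit only through the knockdown group.

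Of 15 convertases, cell-surface serine proteases, their inhibitors and cathepsins 12 were tested. None rose or fell over all genes (limma), 2 had an unadjusted p under 0.05, and 6 lay above and 6 below 0. Over all tested genes 22.8% had such an unadjusted p and 38.6% lay below 0. TMPRSS4, a membrane serine protease, had 2.93 and 2.98 FPKM in control and 1.25 and 1.41 FPKM in knockdown cells (log2 difference -0.76, SE 0.132, limma adjusted p = 0.0911). PRSS8, the epidermal protease prostasin, had 14.85 and 15.33 FPKM against 11.46 and 8.28 FPKM (limma adjusted p = 0.154). CTSV had 2.88 ± 0.700 and 1.86 ± 0.502 FPKM (n = 2 per group, limma adjusted p = 0.293), and CTSL, a lysosomal cathepsin, 43.8 ± 5.78 and 53.2 ± 4.0 FPKM (adjusted p = 0.312).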
